A study of Mus musculus with 75 samples.

Results

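The data described here are the kidneys of VeWT mice, in which the obstructed kidney was compared with the contralateral kidney 3 days after unilateral ureter obstruction (UUO). In UUO a ureter is ligated, so that urine backs up into the kidney above the ligature, while the contralateral (CL) kidney still drains. The pressure and stretch first injure the tubule epithelium, and the obstructed kidney is known for inflammation, activation of interstitial fibroblasts, loss of peritubular capillaries, and later fibrosis. VeWT is the control genotype of the Veptp line, and Veptp is the study's name for Ptprb, a phosphatase of endothelial cells that removes phosphate from the receptor TIE2. The comparison therefore gives the injury response in the line's own controls, against which its knockouts are read.

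The members were chosen by their labels, a genotype of VeWT with a treatment group of UUO or CL, which 15 of the 75 libraries of the series carry. There are 8 VeWT UUO and 7 VeWT CL libraries, each from the RNA of a whole kidney, counted by unique molecular identifiers with Smart-seq3. By the study's methods, VeWT mice were adult littermates of the knockouts that carried a floxed and a wild-type Veptp allele and the tamoxifen-inducible Cdh5-CreERT2 transgene, whose promoter is active in endothelial cells, but were given no tamoxifen. Mice of both sexes were used, and all received the analgesic carprofen around surgery. The other groups used below are VeKO (the same line with the endothelial knockout induced by tamoxifen, 8 UUO and 6 CL), IgG (wild-type mice injected with a control IgG, 8 UUO and 8 CL), and PbWT (Cre-negative littermates of a Pdgfb line, 4 UUO and 4 CL, with kidneys of sham-operated mice among the CL kidneys). No label ties a CL kidney to a UUO kidney, and the study's methods count fewer VeWT mice than there are VeWT UUO libraries, so p-values measure the spread between these libraries.

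The library names have 2 forms, and this form went with large differences between libraries. Names of 3 CL libraries (replicates 1 to 3) and 4 UUO libraries (replicates 1 to 4) write a letter and a number together and are called plain here, and those of 4 CL libraries (replicates 4 to 7) and 4 UUO libraries (replicates 5 to 8) put a low line between them and are called split here. The labels do not say what this mark stands for. The plain-named libraries held 263848 to 858624 counts with 9.18 to 15.8% of them on the ribosomal RNA repeat transcripts Gm42418 and AY036118. The split-named libraries held 1071107 to 1894286 counts with 0.325 to 0.628% on them. Between the forms 6245 of 10909 genes (57.2%) differed at an adjusted p under 0.05, Lypla2 most upward in split-named libraries (log2 difference 4.20) and Gm10800 most downward (-8.35). The fit therefore holds the form as a covariate, and levels, as CPM (counts scaled to a common library size with TMM factors), are given here within each form, plain-named first and in replicate order.

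The labels leave 2 further limits. RNA of sex-linked genes differed between libraries: CL replicate 2 and UUO replicates 2, 3 and 5 held Xist with almost no RNA of Y-linked genes, CL replicate 1 and UUO replicates 1 and 4 held both at 10 counts or more, and the other 8 held Y-linked RNA with at most a few Xist counts. Among split-named libraries, the CL kidneys thus all held Y-linked RNA while UUO replicate 5 did not. In the Veptp arm, split names also carry a number from 1 to 8 in each kidney. In 7 of the 8 numbers the CL and the UUO library held the same sex-linked RNA, and in the eighth they shared the Y-linked RNA, yet 4 of the 8 numbers carry VeWT on one kidney and VeKO on the other. CL replicates 6 and 7 and UUO replicates 5 and 6 are concerned, so counts are also given without these 4 libraries. Ptprb, the floxed gene, was at 67.1, 73.0 and 84.3 CPM in the plain-named CL libraries, 52.0, 97.7, 95.2 and 66.4 in the plain-named UUO, 38.1, 62.9, 32.5 and 29.4 in the split-named CL, and 28.3, 28.6, 27.2 and 34.7 in the split-named UUO libraries (log2 fold change -0.23, SE 0.18, adjusted p 0.364). Its UUO and CL levels overlapped in both forms, and it did not pass the test. As CPM of the library total, without TMM factors, Ptprb was at 30.3 to 70.1 in split-named CL and 31.5 to 44.3 in split-named UUO kidneys of VeWT mice, and at 29.8 to 39.8 and 14.6 to 35.9 in those of VeKO mice, and these ranges of the genotypes overlapped in both kidneys. In plain-named libraries it was at 54.1 to 60.6 in the 3 VeWT CL and 21.3 to 36.0 in the 2 VeKO CL kidneys, which did not overlap, and at 47.6 to 87.3 and 22.6 to 56.4 in UUO kidneys, which did. Kidney markers were present in all 15 libraries: the lowest level of Slc34a1 was 621 CPM, of Umod 941 CPM, of Aqp2 35.6 CPM, and of Nphs1 6.46 CPM.

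Obstruction moved about as many genes up as down. Of 10909 genes tested, 1813 were higher in UUO than in CL kidneys (16.6%) and 1971 lower (18.1%), while 7125 did not pass an adjusted p of 0.05. Rises were the larger changes, with 51 genes at a log2 fold change of 3 or more against 3 at -3 or less (Gm42697, Gpx6, and Cyp2d9). Every UUO library lay above every CL library within both forms for 682 genes (6.25% of those tested) and below for 710 (6.51%), and over all 15 libraries together for 353 (3.24%) and 251 (2.3%). Without TMM factors 2649 genes were higher and 1314 lower, which moves the share of calls that are rises from 47.9% to 66.8% and the median of all genes by 0.16 on the log2 scale, so changes are given relative to the TMM scale. Without the 4 libraries with a number of both genotypes, 1142 genes were higher and 1335 lower. In that fit all 14 genes of the study's matrix panel, 18 injured tubule genes, and 14 macrophage markers described below rose, and 21 of 30 proximal tubule, 16 of 20 loop and distal tubule, and 28 of 30 fatty acid oxidation genes fell.

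The 10 largest rises among genes at a mean of at least 20 CPM and without overlap in either form were Il1f6, Fgb, Havcr1, C3, Vcam1, Timp1, Cd44, Krt20, Lcn2, and Aldh1a2, and the 10 largest falls were Gm42697, Gpx6, Pvalb, Tmem207, 6330410L21Rik, Calb1, Egf, Slc4a1, Ttr, and S100g. The promoter windows of the first members of each group that RefSeq's table for GRCm38.p6 holds are shown so that the sequence at genes at both ends of the response can be seen. Each runs from 250 bases before to 50 bases after a transcription start, 5′ to 3′ on the gene's strand, and capitals mark a match to an AP-1 (TGANTCA), HNF1 (GTTAAT, any base, then ATTAA), HNF4A (CAAAGTCCA), or TATA box (TATAAA) motif on either strand.
Fgb, risen, chr3:83049814-83050113, minus strand: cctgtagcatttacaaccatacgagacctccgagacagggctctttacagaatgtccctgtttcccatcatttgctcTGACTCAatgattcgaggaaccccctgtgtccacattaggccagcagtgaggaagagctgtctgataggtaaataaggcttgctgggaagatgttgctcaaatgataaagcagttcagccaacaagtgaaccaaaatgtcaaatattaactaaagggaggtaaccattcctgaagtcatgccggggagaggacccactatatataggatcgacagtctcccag
Havcr1, risen, chr11:46739973-46740272, plus strand: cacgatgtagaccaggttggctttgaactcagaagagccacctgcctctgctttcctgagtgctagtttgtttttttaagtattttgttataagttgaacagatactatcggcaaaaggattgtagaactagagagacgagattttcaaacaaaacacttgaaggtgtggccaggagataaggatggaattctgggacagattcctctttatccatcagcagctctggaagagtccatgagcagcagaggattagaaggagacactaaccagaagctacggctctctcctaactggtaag
Gpx6, fallen, chr13:21311953-21312252, plus strand: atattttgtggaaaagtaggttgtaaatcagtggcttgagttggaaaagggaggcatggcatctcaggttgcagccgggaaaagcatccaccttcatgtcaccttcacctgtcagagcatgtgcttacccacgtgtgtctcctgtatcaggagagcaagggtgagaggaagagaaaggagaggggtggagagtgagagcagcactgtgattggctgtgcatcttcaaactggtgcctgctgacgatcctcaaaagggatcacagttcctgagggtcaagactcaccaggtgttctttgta
Pvalb, fallen, chr15:78206351-78206650, minus strand: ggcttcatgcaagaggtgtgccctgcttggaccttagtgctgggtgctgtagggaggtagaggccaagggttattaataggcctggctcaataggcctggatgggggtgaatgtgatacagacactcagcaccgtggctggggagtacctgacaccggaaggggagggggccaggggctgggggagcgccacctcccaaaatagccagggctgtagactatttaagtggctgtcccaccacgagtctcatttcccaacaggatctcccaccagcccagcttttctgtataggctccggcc
The Fgb window holds an AP-1 motif, and in the windows of Havcr1, Gpx6, and Pvalb none of the 4 motifs was found. AP-1 is the site of FOS and JUN proteins, and HNF1 and HNF4A are transcription factors of tubule epithelium. Of 8461 genes tested that have a window, 4.37% held the AP-1 motif, against 6.71% of the risen and 4.71% of the fallen genes. The HNF4A motif stood in 0.390% of all windows, 0.219% of the risen, and 0.784% of the fallen. The HNF1 motif stood in 0.0709% of all windows, and the TATA box in 7.03% of all, 9.33% of the risen, and 9.02% of the fallen windows. These shares describe letters in the windows and were not tested.

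Among the largest rises were genes of the injured tubule and of the acute phase. Havcr1 encodes KIM-1, a phosphatidylserine receptor of injured proximal tubule cells. It was at 9.82, 33.8 and 16.9 CPM in the plain-named CL libraries and 853, 491, 635 and 1242 in the plain-named UUO libraries. In the split-named libraries it was at 9.52, 6.29, 17.7 and 13.5 CPM in CL and 1214, 1197, 1125 and 641 in UUO kidneys. The lowest UUO level was over the highest CL level by more than an order of magnitude, and the fitted change was 67.3-fold (log2 fold change 6.07, SE 0.29, adjusted p 2.1e-14). C3, the central protein of the complement cascade, was at 42.5, 57.0 and 22.5 CPM in plain-named CL and 1637, 956, 1277 and 2299 in plain-named UUO libraries. It stood at 30.9, 34.9, 14.8 and 17.0 CPM in split-named CL and 1381, 1311, 1184 and 970.3 in split-named UUO libraries (log2 fold change 5.42, SE 0.23, adjusted p 4.0e-15). Both genes were thus high in all 8 obstructed kidneys and in none of the 7 contralateral ones.

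Fgb, the beta chain of fibrinogen, was at 6.54, 3.56 and 16.9 CPM in plain-named CL and 143, 117, 143 and 219 in plain-named UUO libraries, and at 0, 0.572, 3.53 and 0 in split-named CL and 241, 227, 172 and 74.0 in split-named UUO libraries (log2 fold change 6.24, SE 0.44, adjusted p 8.0e-12). The other fibrinogen chains moved the same way, Fga with a log2 fold change of 3.41 and Fgg with 4.38. Il1f6, an interleukin-1 family cytokine also known as IL-36 alpha, had 0 counts in 7387094 over the CL libraries and 21 to 52 counts in each UUO library. Pooled over both forms, its UUO level was 82.0-fold a floor of 3 counts over the CL group. This value leaves the form aside and is not a lower bound within a form. Its UUO level was 84.5, 53.4, 58.8 and 86.4 CPM in plain-named and 25.9, 22.5, 18.1 and 12.0 in split-named libraries, with no overlap between these either.

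Vcam1, an adhesion molecule for leukocytes that injured tubule cells and activated endothelium share, was at 8.90 to 22.9 CPM in plain-named CL and 455, 139, 221 and 452 in plain-named UUO libraries. Its split-named levels were 12.0 to 16.7 CPM in CL and 595, 600.0, 626 and 498 in UUO kidneys (log2 fold change 5.03, SE 0.26, adjusted p 9.5e-14). Timp1, an inhibitor of matrix metalloproteinases, rose with a log2 fold change of 4.95, the hyaluronan receptor Cd44 with 4.90, the epithelial keratin Krt20 with 4.69, the iron-chelating lipocalin Lcn2 (NGAL) with 4.56, and the retinoic acid-making enzyme Aldh1a2 with 4.55. In each of these the UUO libraries lay above all CL libraries.

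**Figure D1:**
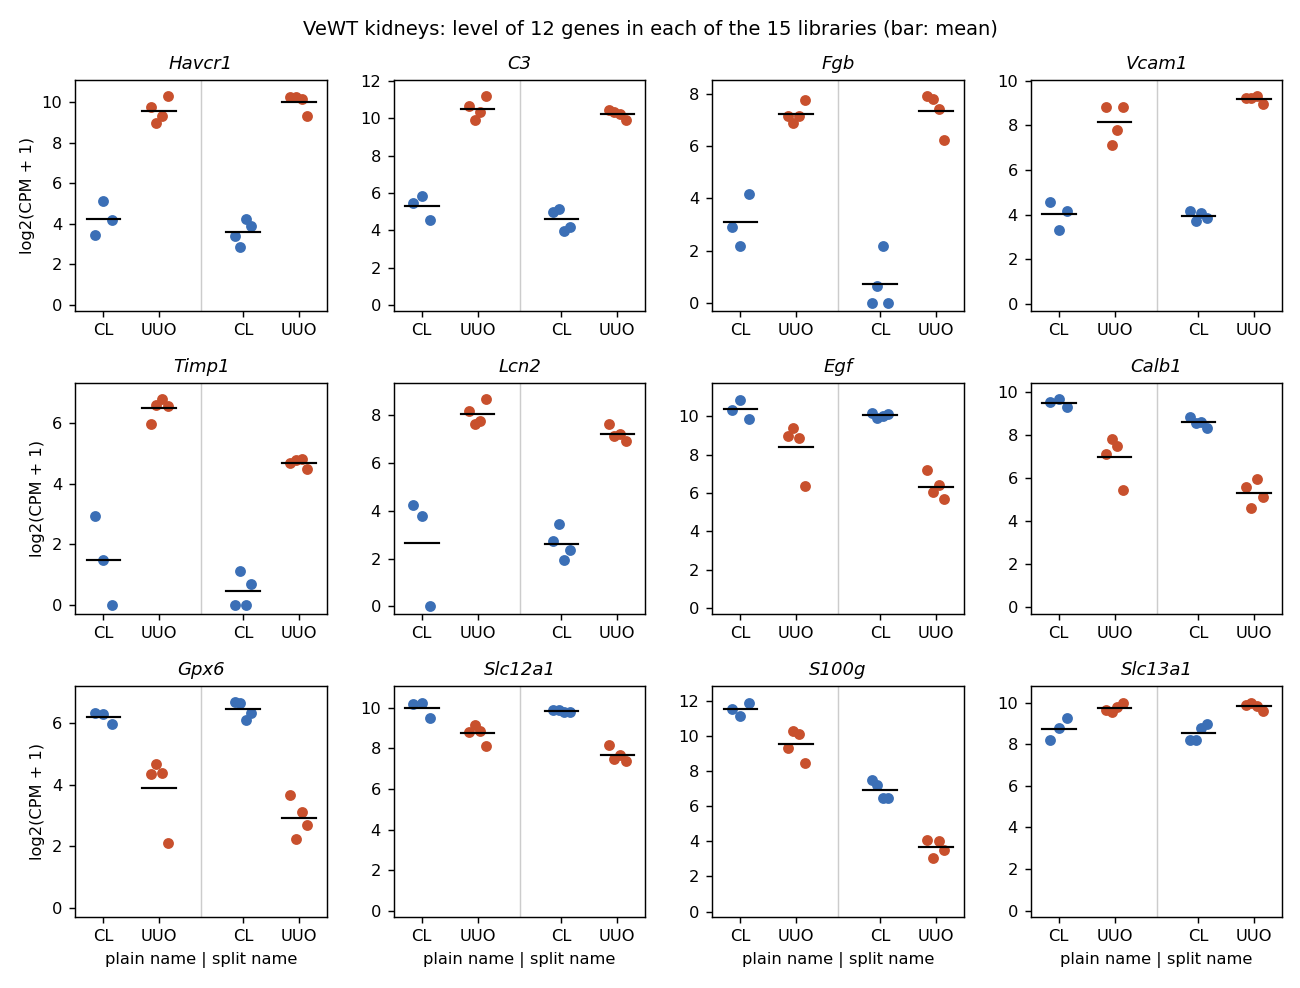
Level of 12 genes in each VeWT library, as log2(CPM + 1), with CL kidneys in blue and UUO kidneys in red, plain-named libraries on the left and split-named on the right of each panel, and bars at the mean. Havcr1, C3, and Egf separate UUO from CL in both forms, and the level of S100g differs between the forms as well as between the kidneys.

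Egf, Calb1, Pvalb, and S100g, which are known from the distal nephron, are among the 10 largest falls. Egf encodes epidermal growth factor, which is made by cells of the thick ascending limb and distal convoluted tubule. It was at 1306, 1892 and 950.0 CPM in plain-named CL and 505, 675, 470.3 and 83.1 in plain-named UUO libraries. In the split-named libraries it was at 1154, 976, 1053 and 1111 CPM in CL and 147, 64.6, 85.1 and 50.9 in UUO kidneys (log2 fold change -2.74, SE 0.34, adjusted p 4.7e-07). Levels did not overlap, and the plain-named UUO replicate 4 was lowest of its form and near the split-named libraries. In whole-kidney RNA, fewer cells of a type and less RNA per cell cannot be told apart.

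Gm42697 and 6330410L21Rik share bases with the span of Egf and are not taken as separate evidence. Egf spans chr3:129677565-129755316 on the minus strand in the GENCODE M21 annotation of mm10. Gm42697 (chr3:129728845-129740188, plus strand) lies wholly within that span. Of the 10127 bases of 6330410L21Rik (chr3:129753758-129763884, plus strand) 1559 overlap it, and most lie outside. Spans were compared, not exons. The sources used here do not state whether counting used strand. Reads in the shared bases therefore cannot be assigned to Egf or to these antisense genes (log2 fold change -3.09 and -2.85).

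Calb1, the calcium-binding calbindin of the distal convoluted and connecting tubule, was at 746, 808 and 635 CPM in plain-named CL and 136, 224, 179 and 43.2 in plain-named UUO libraries, and at 460.2, 375, 393 and 323 in split-named CL and 47.1, 23.8, 60.7 and 33.5 in split-named UUO libraries (log2 fold change -2.80, SE 0.23, adjusted p 4.1e-10). Pvalb, parvalbumin of the early distal convoluted tubule, was at 21.4, 20.6, 14.1 and 33.5 CPM in split-named CL and 0.786, 0.609, 0 and 0 in split-named UUO libraries. In plain-named libraries Pvalb was at 50.7, 62.3 and 101 CPM in CL and 22.7, 31.3, 8.40 and 0 in UUO kidneys (log2 fold change -2.91, SE 0.43, adjusted p 5.5e-06). S100g, the calbindin of calcium-transporting epithelia, fell within each form but differed more between the forms: 2266 to 3822 CPM in CL and 352 to 1236 in UUO in plain-named libraries, and 86.8 to 182 in CL and 7.31 to 15.7 in UUO in split-named ones (log2 fold change -2.50, SE 0.28, adjusted p 7.9e-08). Without the form S100g did not pass (-1.68, adjusted p 0.359). Slc4a1, the chloride-bicarbonate exchanger of acid-secreting intercalated cells and red cells, fell by 2.67 on the log2 scale, Tmem207 by 2.90, the glutathione peroxidase gene Gpx6 by 3.02, and the thyroxine carrier Ttr by 2.59. The 4 red blood cell genes tested did not pass the test (log2 fold change of Hbb-bs -0.62, adjusted p 0.14). All 4 values were below 0 (median -0.57), and Hbb-bs, Hbb-bt, and Hba-a1 fell when CL replicate 2 was left out and Hbb-bs when UUO replicate 5 was.

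Transcripts of the matrix and of fibroblasts rose together. All 14 members of the study's matrix panel rose, with a median log2 fold change of 1.86 against 0.00 over all genes tested, and every UUO library lay above every CL library of its form for 13 of them. The study showed this panel for these samples, and the sources used here do not say how its genes were chosen, so its direction is not taken as independent evidence. Col1a1, the alpha-1 chain of type I collagen, was at 9.82, 8.90 and 28.1 CPM in plain-named CL and 192, 164, 162 and 322 in plain-named UUO libraries. In split-named libraries Col1a1 was at 35.7, 44.0, 22.6 and 15.3 CPM in CL and 361, 292, 325 and 430.0 in UUO kidneys (log2 fold change 3.69, SE 0.22, adjusted p 1.3e-12). Fn1, fibronectin, rose with a log2 fold change of 3.14, Col3a1 with 3.11, and the metalloproteinase Adamts1 with 2.37. The smallest rise of the panel was that of Timp2 (1.10), the member whose levels overlapped.

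Of 20 fibroblast and mesenchymal markers, 18 were tested and 16 rose, with a median of 2.11. Acta2, smooth muscle actin of myofibroblasts and vessel walls, had 40.9 to 56.2 CPM in plain-named CL and 78.4 to 226 in plain-named UUO libraries, and 31.1 to 70.6 in split-named CL and 95.9 to 158 in split-named UUO libraries (log2 fold change 1.40). Vim, vimentin, rose with a log2 fold change of 2.00, Pdgfrb, the receptor of PDGFB on pericytes and fibroblasts, with 1.83, and Pdgfra, a fibroblast receptor, with 0.88. Pdgfb itself rose with 1.50. Mgp, matrix Gla protein, rose with 2.88 and again had levels that differed between the forms, 1392 to 2322 CPM in plain-named and 99.6 to 196 in split-named UUO libraries. Col5a2 (0.31, adjusted p 0.239) and Igfbp7 (0.19, adjusted p 0.285) were tested and did not pass, and Postn and Lum held too few counts to be tested. Without TMM factors 17 of the 18 rose.

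The TGF-beta pathway was less uniform. Of 19 genes 14 were tested, 7 rose, Bmp7 fell, and 6 did not pass, with a median of 0.42. Over all genes tested 16.6% were higher and 18.1% lower. Tgfb1, Tgfb2, and Tgfb3, the ligands, held too few counts for a test. The receptor Tgfbr2 rose with a log2 fold change of 1.16, the matricellular targets Ccn1 with 1.99 and Ccn2 with 1.00, and the corepressor Tgif1 with 1.52. Bmp7, a BMP ligand made by distal nephron and collecting duct that is known to oppose TGF-beta signalling, was at 71.4, 66.9, 62.8 and 64.0 CPM in split-named CL and 32.2, 42.0, 27.2 and 33.9 in split-named UUO libraries (log2 fold change -0.76, SE 0.18, adjusted p 0.00148). In plain-named libraries, at 21.3 to 39.2 CPM in CL and 9.97 to 30.8 in UUO kidneys, its levels overlapped and it did not pass alone (log2 fold change -0.22). In these libraries alone 3 of 15 pathway genes tested rose and none fell, beside 698 and 730 of all 8993 genes tested. Without the form 4 of 14 pathway genes rose and none fell, beside 1004 and 872 of 10909 genes.

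Genes of injured and dedifferentiated tubule cells rose as a group. All 8 members of the study's tubular injury panel rose (median 1.31), a panel of the same kind, as did all 19 tested of a list of 20 injured tubule genes (median 1.79), of which Sox9 was not tested. Clu, the secreted chaperone clusterin, was at 283, 447 and 247 CPM in plain-named CL and 2188, 1869, 2758 and 3375 in plain-named UUO libraries, and at 309, 243, 273 and 299 in split-named CL and 1991, 1638, 1936 and 1062 in split-named UUO libraries (log2 fold change 2.73, SE 0.18, adjusted p 8.6e-12). Spp1, osteopontin, reached 12207 to 31654 CPM in plain-named UUO libraries from 3182 to 4128 in CL, the highest level of any member of these lists (log2 fold change 2.76). The summed level of the tubular injury panel was 539.6 to 735 CPM in plain-named CL and 2986 to 5628 in plain-named UUO libraries. The simple epithelial keratin Krt8 rose with 1.12, the annexin Anxa3 with 2.70, and the mechanically gated channel Piezo1 with 0.71.

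Among 16 immediate-early and stress transcription factors, 8 held enough counts for a test and 7 rose (median 1.95). The 8 without a test include Fos, Fosb, and Atf3. Runx1 rose with a log2 fold change of 3.51 from 3.27 to 5.62 CPM in plain-named CL to 14.3 to 36.5 in plain-named UUO libraries, Myc with 2.39, and Egr1 with 2.09, while Ier3 was at 0.30 (adjusted p 0.319). Of 11 tested p53 targets and growth arrest genes 4 rose, Cdkn1a, Gdf15, Btg2 (1.17), and Mdm2 (0.50), and Ccng1 fell (-0.48), beside 16.6% higher and 18.1% lower over all genes tested. The number that rose was 2 to 6 when a library was left out, lowest without UUO replicate 8, 1 of 9 tested in plain-named libraries alone, and 7 without TMM factors. No member fell without TMM factors, without the form, or by edgeR's exact test. Nor did any in plain-named libraries alone or without the 4 libraries with a number of both genotypes. The cell cycle inhibitor Cdkn1a (p21) was at 19.6, 5.34 and 11.2 CPM in plain-named CL and 45.5, 71.6, 56.0 and 89.7 in plain-named UUO libraries, and at 15.1, 9.15, 9.18 and 2.35 in split-named CL and 73.9, 38.4, 53.7 and 38.9 in split-named UUO libraries (log2 fold change 2.48, SE 0.27, adjusted p 5.7e-08). Gdf15, a stress cytokine, rose with 1.50 at low levels, at most 28.6 CPM.

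Cell cycle genes rose alongside this inhibitor. Of 24 genes 22 were tested, 20 rose, Ccnd1 fell, and Tyms did not pass (0.13), with a median of 1.40. Mki67, a marker of cycling cells, was at 19.6, 16.0 and 28.1 CPM in plain-named CL and 78.0, 58.6, 64.4 and 123 in plain-named UUO libraries, and at 11.9, 8.01, 3.53 and 5.88 in split-named CL and 46.4, 66.4, 53.0 and 64.5 in split-named UUO libraries (log2 fold change 2.62, SE 0.23, adjusted p 1.8e-09). The mitotic cyclin Ccnb1 rose with 2.94 and topoisomerase Top2a with 2.60. The change of Ccnd1, cyclin D1 of the G1 phase, was small (log2 fold change -0.43, SE 0.14, adjusted p 0.017) and did not pass when CL replicate 4 or UUO replicate 6 or 7 was left out (highest adjusted p 0.0585). Its fall was also not called without TMM factors, without the form, or by edgeR's exact test. The same held in plain-named libraries alone and without the 4 libraries with a number of both genotypes. In plain-named libraries alone 11 of the 22 cell cycle genes rose.

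Of 24 chemokine, cytokine, and acute-phase genes 17 were tested, 15 rose, and Cxcl12 fell, with a median log2 fold change of 3.41. Ccl2, which recruits monocytes, was at 0 to 3.56 CPM in plain-named CL and 19.5, 20.8, 28.0 and 9.97 in plain-named UUO libraries, and at 0 to 2.35 in split-named CL and 37.7, 32.3, 52.3 and 25.6 in split-named UUO libraries (log2 fold change 4.39, SE 0.39, adjusted p 4.5e-10). Cxcl1, which recruits neutrophils, rose with 3.95 and the interferon-induced Cxcl10 with 4.37. Cxcl12, a homeostatic chemokine of stromal and some epithelial cells, fell in the split-named libraries from 276, 329, 191 and 199 to 101, 96.8, 81.6 and 82.3 CPM (log2 fold change -0.97, SE 0.21, adjusted p 5.5e-04 over both forms). In the plain-named libraries its levels overlapped, at 73.0 to 157 CPM in CL and 73.1 to 125 in UUO kidneys. C4b was not called (0.71, adjusted p 0.064), but rose when CL replicate 3, 6, or 7 or UUO replicate 3 or 5 was left out (lowest adjusted p 0.00832), and 13 to 17 members of the list rose with a library left out. Tnf, Il1b, and Il6 held too few counts to be tested, at most 7 in any library.

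Macrophage markers rose in 14 of 15 tested members (of 16 in the list), each of the 14 without overlap in either form, with a median of 2.38. Over all genes tested 16.6% rose, and 6.25% had UUO above CL without overlap in both forms. The summed level of all 16 was 219 to 350.1 CPM in plain-named CL and 1158 to 1500.5 in plain-named UUO libraries, and 225 to 292 in split-named CL and 802 to 949.7 in split-named UUO libraries. Adgre1, F4/80 of macrophages, was at 11.5, 10.7 and 5.62 CPM in plain-named CL and 21.1, 35.2, 36.4 and 36.5 in plain-named UUO libraries, and at 6.35, 6.29, 4.24 and 4.70 in split-named CL and 27.5, 26.2, 25.8 and 31.4 in split-named UUO libraries (log2 fold change 2.12, SE 0.22, adjusted p 2.7e-08). Ccr2, the receptor of Ccl2 on monocytes, rose with 3.51, the integrin Itgam with 3.29, and complement C1qb with 2.18. Csf1r did not pass (0.27, adjusted p 0.176), though its lowest adjusted p with a library left out was 0.0466. Without TMM factors all 15 markers rose. Of 17 markers of other leukocytes only the pan-leukocyte Ptprc (1.95) and Ighm (1.84) held enough counts for a test, and both rose. The remaining 15 were near the floor: the neutrophil genes S100a8 and S100a9 had at most 17 and 39 counts in any library, the T cell genes Cd3e, Cd3d, and Cd3g at most 8, and the B cell gene Ms4a1 at most 3.

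Of the study's 10 genes of the endothelium, where Cre of this line acts, Cdh5 rose and none fell, beside 16.6% higher and 18.1% lower over all genes tested. The median was -0.15, or 0.01 without TMM factors, -0.37 in split-named libraries alone, and -0.26 without the 4 libraries with a number of both genotypes. Cdh5, VE-cadherin of endothelial junctions, was at 36.0, 23.1 and 22.5 CPM in plain-named CL and 26.0, 39.1, 30.8 and 43.2 in plain-named UUO libraries, and at 38.1, 29.2, 13.4 and 15.3 in split-named CL and 64.4, 27.4, 36.3 and 53.7 in split-named UUO libraries (log2 fold change 0.73, SE 0.24, adjusted p 0.0194). Its levels overlapped in both forms, and it did not pass when CL replicate 6 or 7 or UUO replicate 5 or 8 was left out (highest adjusted p 0.0666) or without the 4 libraries with a number of both genotypes (0.38, adjusted p 0.229). Cdh5 also did not pass by edgeR's exact test (adjusted p 0.0869), without the form (0.0915), or in plain-named libraries alone (0.27, adjusted p 0.626). Tek, which encodes TIE2, was at 22.5 to 49.1 CPM in plain-named CL and 19.5 to 50.8 in plain-named UUO libraries, and at 34.7 to 58.9 in split-named CL and 23.8 to 39.3 in split-named UUO libraries (log2 fold change -0.32, SE 0.20, adjusted p 0.236). The TIE2 ligand gene Angpt2 had a log2 fold change of -0.43 (adjusted p 0.316), Angpt1 0.13 (0.777), the VEGF receptor Kdr -0.43 (0.175), the capillary sialomucin Emcn -0.54 (0.0709), and Pecam1 0.28 (0.286). The SE of these values was 0.19 to 0.31. Emcn passed as lower when CL replicate 6 or 7 or UUO replicate 2 or 5 was left out (lowest adjusted p 0.0162), without the 4 libraries with a number of both genotypes (-0.88, adjusted p 0.00501), and with Xist as covariate (adjusted p 0.0473).

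Some genes that act on vessels did change. Vegfa, the endothelial growth factor made by tubules and podocytes, was at 113, 123 and 107 CPM in plain-named CL and 65.0, 71.6, 58.8 and 56.5 in plain-named UUO libraries, and at 63.5, 56.6, 60.7 and 48.2 in split-named CL and 39.3, 45.7, 37.7 and 21.9 in split-named UUO libraries (log2 fold change -0.75, SE 0.15, adjusted p 2.0e-04). It was the only one of 5 tested angiopoietin and VEGF ligands to pass in the fit of all 15 libraries with the form as covariate, where 18.1% of all genes tested fell. By edgeR's exact test or without the form, neither Vegfa nor any other of the 5 passed. Vegfb also fell when CL replicate 1 or 6 or UUO replicate 2 was left out, and Angptl4 rose without TMM factors and without CL replicate 6 or 7 or UUO replicate 2 or 8. Without the 4 libraries with a number of both genotypes 1 of the 5 ligands rose and 1 fell. Of 5 endothelial activation markers Sele and Selp were too low to test, and Vcam1, Icam1 (2.37), and Klf4 (1.81) rose. Vcam1 and Icam1 are also made by injured tubule cells, and whole-kidney RNA does not say which cells gave the change.

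Tubule segment genes fell along the whole nephron, with a few rises among them. Of 30 proximal tubule markers 26 fell and Slc13a1 rose (median -0.90), of 20 of the loop of Henle and distal tubule 17 fell and Trpv5 rose (median -1.53), and of 18 of the collecting duct 14 fell (median -0.74). Without the form of the library name in the fit the proximal falls number 16 and the collecting duct falls 8, and with plain-named libraries alone the collecting duct falls number 5 of 17. The summed level of the proximal list was 34296 CPM or more in every plain-named CL library and at most 22418 in the plain-named UUO libraries, and at least 22762 in split-named CL against at most 15121 in split-named UUO libraries.

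In the proximal tubule, Slc34a1, the phosphate transporter NaPi-IIa, was at 1795, 1864 and 2490.1 CPM in plain-named CL and 994, 1205, 1176 and 621 in plain-named UUO libraries, and at 2805, 2435, 2562 and 2702 in split-named CL and 1339, 1769, 1754 and 1496 in split-named UUO libraries (log2 fold change -0.86, SE 0.15, adjusted p 6.3e-05). Slc22a7, an organic anion transporter, had the largest fall of the list (log2 fold change -2.48, SE 0.24, adjusted p 9.2e-09). The endocytic receptor Lrp2 (megalin) fell by 0.56 on the log2 scale and the transcription factor Hnf4a by 0.60. Slc13a1, a sulfate transporter, went the other way, at 296, 433 and 607 CPM in plain-named CL and 796, 751, 887 and 1027 in plain-named UUO libraries, and at 298, 296, 436 and 498 in split-named CL and 962, 1027, 922 and 785 in split-named UUO libraries (log2 fold change 1.15, SE 0.15, adjusted p 1.3e-06). Its levels did not overlap in either form. The amino acid transporter Slc7a7 did not pass (adjusted p 0.994).

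Kap, an androgen-regulated proximal gene, fell by 1.21 on the log2 scale, with levels that overlapped in the split-named libraries and a single high value of 28150.0 CPM in CL replicate 3. With Xist as covariate it stood at -0.82 (adjusted p 0.00392), and it did not pass without the form (adjusted p 0.259) or by edgeR's exact test (0.191). The transporters Slc7a13 and Slco1a1 and the cytochrome Cyp4b1 are among those known to be higher in male mouse kidney. Slc7a13 was at 321, 0 and 708 CPM in plain-named CL and 185, 6.51, 5.60 and 29.9 in plain-named UUO libraries, and at 895, 987, 948 and 1155 in split-named CL and 7.86, 281, 422 and 365 in split-named UUO libraries (log2 fold change -2.06, SE 0.58, adjusted p 0.00624). It was lowest in CL replicate 2 and UUO replicates 2, 3, and 5, the 4 libraries with Xist and almost no Y-linked RNA. Without UUO replicate 5 the split-named libraries alone gave a log2 fold change of -1.48 (adjusted p 1.6e-06), in libraries that all held Y-linked RNA. Slc7a13 did not pass in plain-named libraries alone (adjusted p 0.0755), by DESeq2 (0.0601), by edgeR's exact test (0.0854), or without the form (0.132). Slco1a1 (log2 fold change -1.62, SE 0.61, adjusted p 0.04) did not pass when any of CL replicates 3 to 7 or UUO replicates 2 to 7 was left out (highest adjusted p 0.101). It also did not pass by DESeq2 (adjusted p 0.211), by edgeR's exact test (0.115), without the form (0.157), without TMM factors (0.0691), with Xist as covariate (-1.22, adjusted p 0.0752), in plain-named libraries alone (-0.60, adjusted p 0.731), or without the 4 libraries with a number of both genotypes (-0.91, adjusted p 0.285). In the split-named libraries without UUO replicate 5 it stood at -1.71 (adjusted p 3.9e-05). Cyp4b1 in those libraries stood at -1.64 (adjusted p 2.0e-06), and it did not pass in plain-named libraries alone (adjusted p 0.0528).

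Further along the nephron, Slc12a1, the sodium-potassium-chloride transporter NKCC2 of the thick ascending limb, was at 1186, 1226 and 725 CPM in plain-named CL and 455, 577, 462 and 276 in plain-named UUO libraries, and at 953, 953, 888 and 895 in split-named CL and 282, 180.3, 204 and 163 in split-named UUO libraries (log2 fold change -1.75, SE 0.18, adjusted p 2.2e-08). Slc12a3, the thiazide-sensitive transporter of the distal convoluted tubule, fell by 1.60 on the log2 scale. Umod, uromodulin of the thick ascending limb, moved much less: 3744, 4219 and 4480.0 CPM in plain-named CL and 3187, 3092, 3578 and 3322 in plain-named UUO libraries, and 2267, 1876, 1826 and 2180.3 in split-named CL and 2026, 1376, 1558 and 941 in split-named UUO libraries (log2 fold change -0.40, SE 0.16, adjusted p 0.0497). Umod did not pass when any of CL replicates 4 to 7 or UUO replicates 1, 2, 4, 6, 7, or 8 was left out (highest adjusted p 0.0951), without TMM factors (-0.24, adjusted p 0.178), with RLE factors (adjusted p 0.0556), by edgeR's exact test (0.634), without the form (0.621), after thinning (0.133), without the 4 libraries with a number of both genotypes (0.101), or in plain-named (0.408) or split-named libraries alone (0.0992). Trpv5, the calcium entry channel of the same distal cells that hold Calb1 and S100g, rose from 22.9, 19.6 and 11.2 to 42.2, 71.6, 56.0 and 43.2 CPM in plain-named and from 18.2, 21.7, 24.7 and 28.2 to 91.1, 56.6, 82.3 and 69.5 in split-named libraries (log2 fold change 1.61, SE 0.17, adjusted p 4.6e-08). The magnesium channel Trpm6 did not pass (-0.01, adjusted p 0.981).

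In the collecting duct, Aqp2, the vasopressin-regulated water channel, fell in the split-named libraries from 568, 599.8, 521 and 369 to 266, 128, 97.0 and 80.2 CPM. In the plain-named libraries it stood at 85.1, 35.6 and 45.0 CPM in CL and 35.7, 41.7, 64.4 and 36.5 in UUO kidneys and overlapped (log2 fold change -1.42, SE 0.26, adjusted p 1.0e-04 over both forms). Scnn1a, the alpha subunit of the sodium channel ENaC, fell by 1.29, whereas the beta subunit Scnn1b did not pass (-0.33, adjusted p 0.21). Atp6v1g3, a proton pump subunit of intercalated cells, fell by 0.78. In the glomerulus none of 9 tested podocyte markers fell and 2 rose, beside 18.1% lower and 16.6% higher over all genes tested. Synpo (0.99) and Thsd7a (0.78) rose, with UUO above CL in the split-named libraries only, and Thsd7a not past the threshold when any of CL replicates 1, 3, 4, 6, or 7 or UUO replicates 2, 3, or 5 to 8 was left out (highest adjusted p 0.117). No podocyte marker passed in plain-named libraries alone, without the 4 libraries with a number of both genotypes, without the form, or by edgeR's exact test. The slit diaphragm gene Nphs1 (-0.16) and the sialomucin Podxl (adjusted p 0.9986) did not pass.

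**Figure D2:**
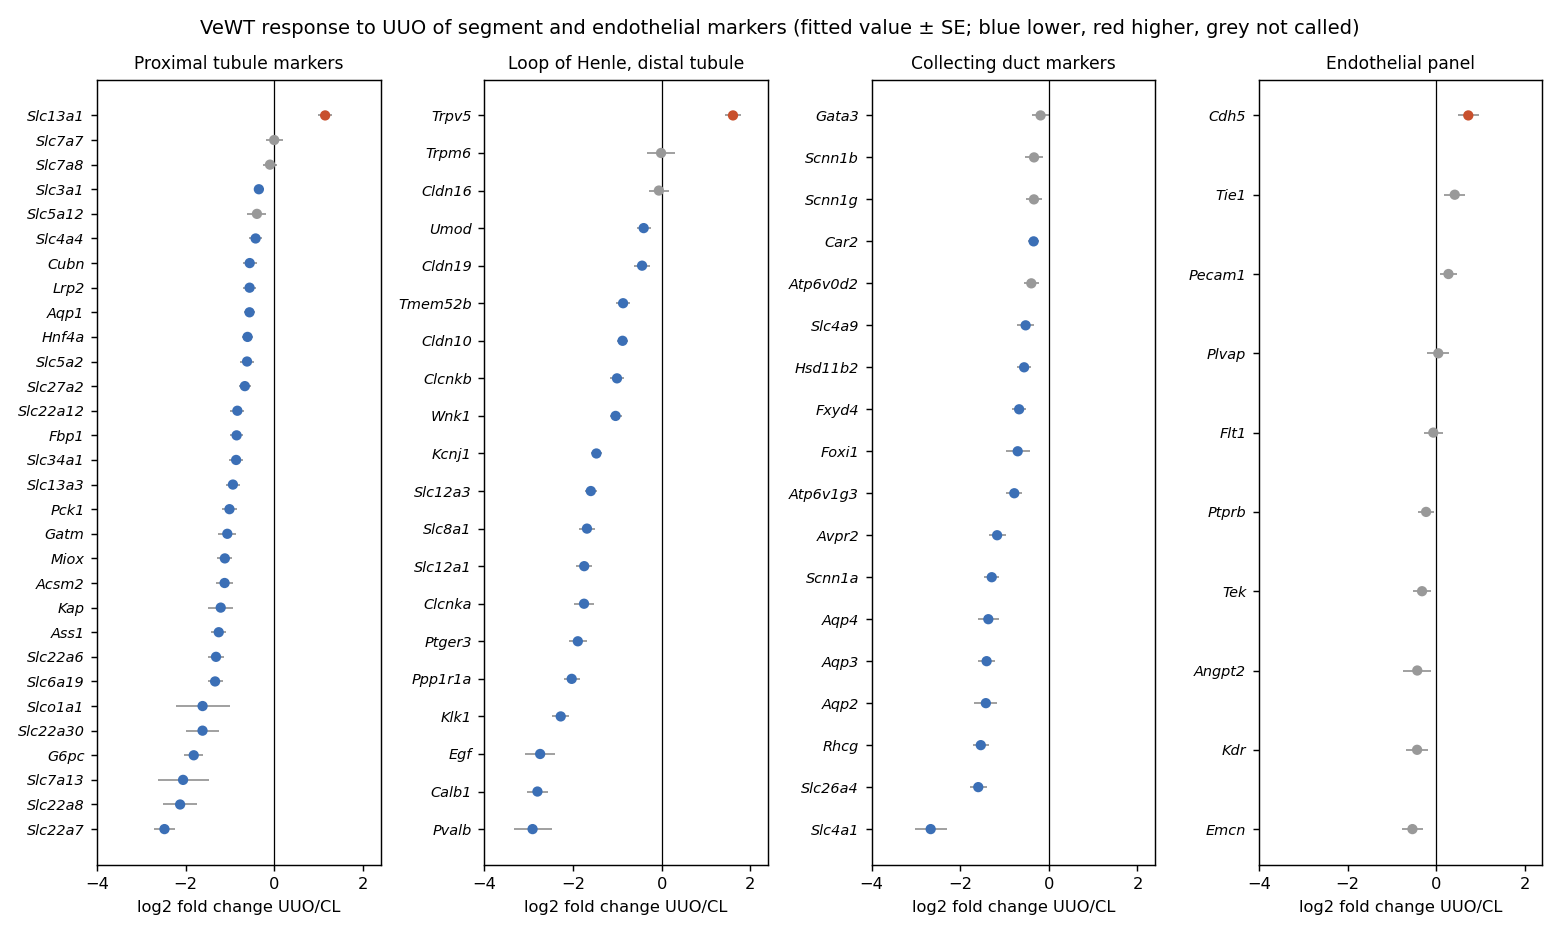
Fitted log2 fold change (UUO over CL) with its SE for each marker of the proximal tubule, the loop of Henle and distal tubule, the collecting duct, and the study's endothelial panel in VeWT mice, blue where called lower, red where called higher, and grey where not called. Slc13a1, Trpv5, and Cdh5 stand at the top of their lists, and the other 9 endothelial genes are grey.

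Genes of mitochondrial energy supply fell almost without exception. Of 31 genes of fatty acid oxidation and peroxisomes 29 fell (median -0.75), of 18 of the citrate cycle 17 (median -0.74), of 36 nuclear-encoded complex I subunits 34 (median -0.63), and of 13 genes of mitochondrial DNA all 13 (median -0.80), with no rise in any of these lists. Acadm, the medium-chain acyl-CoA dehydrogenase, was at 1651, 1882 and 1686 CPM in plain-named CL and 914, 974, 829 and 429 in plain-named UUO libraries, and at 1340.0, 1155, 1152 and 1239 in split-named CL and 615, 521, 668 and 491 in split-named UUO libraries (log2 fold change -1.11, SE 0.14, adjusted p 9.6e-07). Ppara, the transcription factor that drives fatty acid oxidation genes, fell by 1.15, the carnitine transferase Cpt1a by 0.62, and the citrate cycle gene Suclg1 by 0.89. Citrate synthase Cs did not pass (-0.23, adjusted p 0.0785). The complex I subunit gene Ndufs1 fell by 0.90, and of the mitochondrial genes mt-Co3 fell by 0.99.

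Fewer genes of complex I and mitochondrial DNA were called when libraries of both forms were fitted without the form. Without it 5 of 36 complex I genes and 1 of 13 mitochondrial genes fell, with medians of -0.55 and -0.68. In that fit 872 of all 10909 genes tested fell, so the mitochondrial count lay near the share over all genes. The complex I sum was 16555 to 24772 CPM in plain-named CL and 10535 to 14295 in plain-named UUO libraries, and 6372 to 7418 in split-named CL and 3441 to 5223 in split-named UUO libraries, so that UUO lay below CL within each form while the forms lay apart. The sum of the 13 mitochondrial genes was 33925 to 47133 CPM in plain-named CL and 19141 to 25450 in plain-named UUO libraries. In split-named libraries this sum overlapped, at 21723 to 31685 CPM in CL and 8416 to 24638 in UUO kidneys. Only 3 of the 13 genes had UUO below CL without overlap in both forms. With each form fitted alone, 28 complex I and 9 mitochondrial genes fell in plain-named libraries and 21 and 8 in split-named ones. Of all genes tested, 730 of 8993 fell in plain-named and 1657 of 11933 in split-named libraries.

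Of 17 tested antioxidant and metallothionein genes 3 rose and 5 fell, beside 16.6% higher and 18.1% lower over all genes tested. The haem oxygenase Hmox1 (1.27), the metallothionein Mt2 (1.42), and the sulfiredoxin Srxn1 (0.59) rose, and catalase (Cat, -0.82), the superoxide dismutases Sod2 (-0.91) and Sod1 (-0.58), and the NRF2 targets Nqo1 (-0.73) and Gclm (-0.45) fell. Without the form in the fit none of the 3 rises and 2 of the falls passed. Of 8 tested genes of the renin-angiotensin system Agt, angiotensinogen, rose (0.73), Ace, the converting enzyme, fell (-0.95), which is 1 of 8 in each direction, and Ren1, renin, did not pass (0.28, adjusted p 0.262). None of the 8 passed without the form or by edgeR's exact test. In plain-named libraries alone and without the 4 libraries with a number of both genotypes, none rose and 1 fell.

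Markers of tissue next to the kidney were low, and none passed the test in the fit of all 15 libraries. All 8 adrenal markers were too low to test, with Cyp11b1 and Cyp11a1 at 0 in all 15 libraries and a summed level of at most 16.9 CPM. Of 9 fat cell markers 4 were tested and none passed, but in plain-named libraries their sum was higher in every UUO library (229 to 322 CPM) than in CL (62.3 to 172 CPM). In split-named libraries it was 91.1 to 183 CPM in CL and 32.8 to 372 in UUO kidneys, highest in UUO replicate 5. In plain-named libraries alone 2 of 3 fat cell markers tested rose, Cfd and Fabp4. Both also rose when UUO replicate 6 or 7 was left out, and Fabp4 rose without CL replicate 5 and without TMM factors. The adipsin gene Cfd was at 58.5, 53.4, 47.6 and 36.5 CPM in plain-named UUO against 11.5, 1.78 and 16.9 in plain-named CL libraries. Of 7 urothelial markers 2 were tested and neither passed, although Upk1a fell with Xist as covariate, with a sum of 11.6 to 170.5 CPM in split-named UUO libraries, highest in UUO replicate 5, where the uroplakin gene Upk1a was at 38.5 CPM. The part of these tissues in the results above was not tested.

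**Figure D3:**
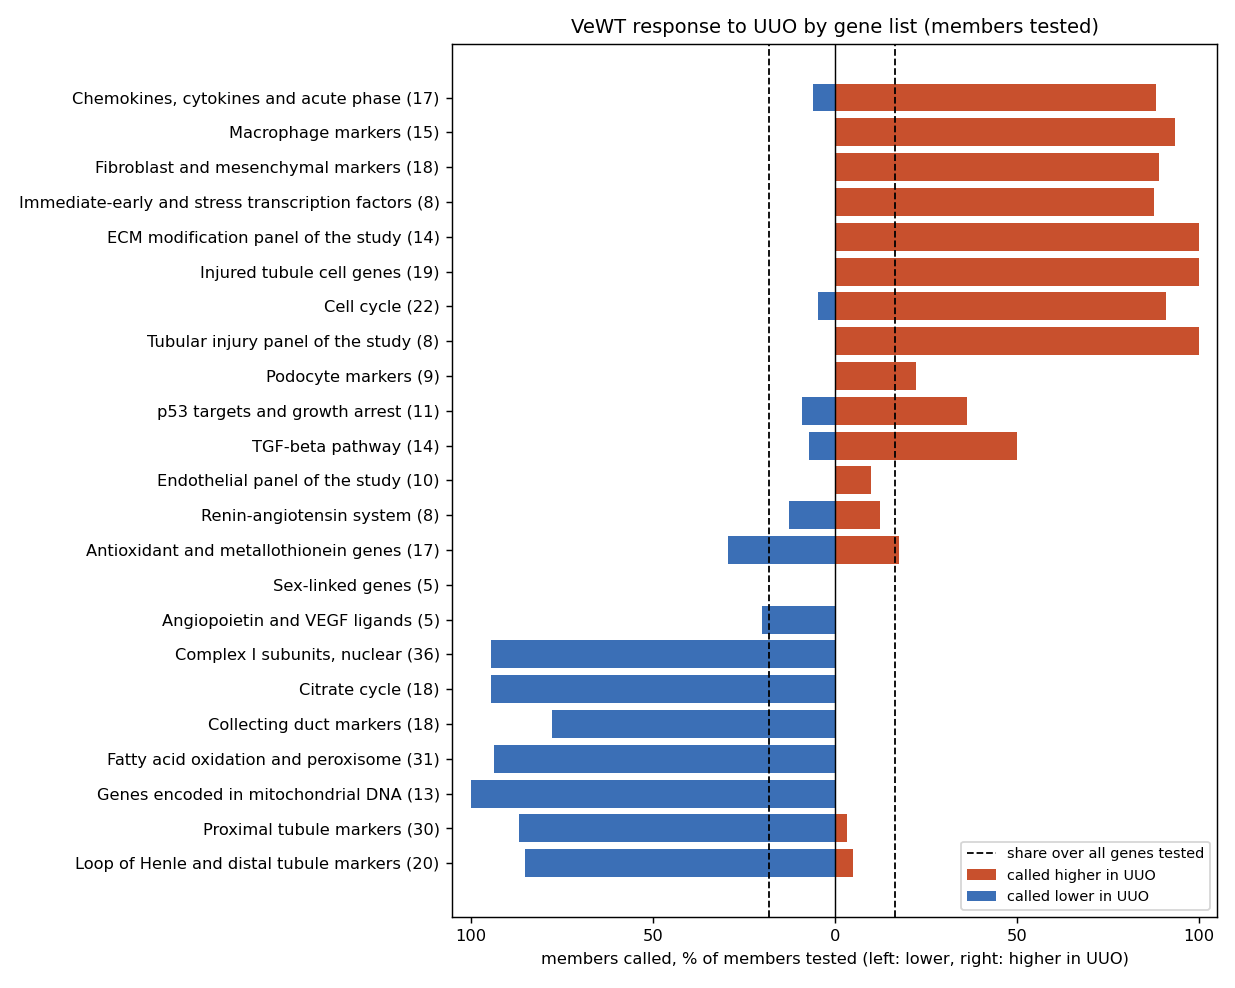
Share of tested members called higher (right, red) or lower (left, blue) in VeWT UUO than CL kidneys for each gene list with at least 5 members tested, ordered by median log2 fold change, with the number tested in brackets and dashed lines at the share over all genes tested (16.6% higher, 18.1% lower). Immune, matrix, and injury lists lie at the top and segment and mitochondrial lists at the bottom, while the endothelial, renin-angiotensin, and podocyte lists have at most 2 members called.

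The 2 forms of library share no sample. Over 8868 genes tested in both, the log2 fold changes correlated with Pearson's r = 0.80 and Spearman's rho = 0.71, across genes, which are not independent replicates. Of 673 genes higher in plain-named libraries 78.2% were also called higher in split-named ones, and of 1212 higher in split-named 43.4% were also called in plain-named ones. For lower genes the shares were 81.1% of 719 and 40.6% of 1437. The 3 genes called in opposite directions, Gusb, Glg1, and Zbtb20, were higher in plain-named and lower in split-named UUO libraries, and none passed the test of the difference. They fall outside the rule for named genes and were chosen after their values were seen.

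**Figure D4:**
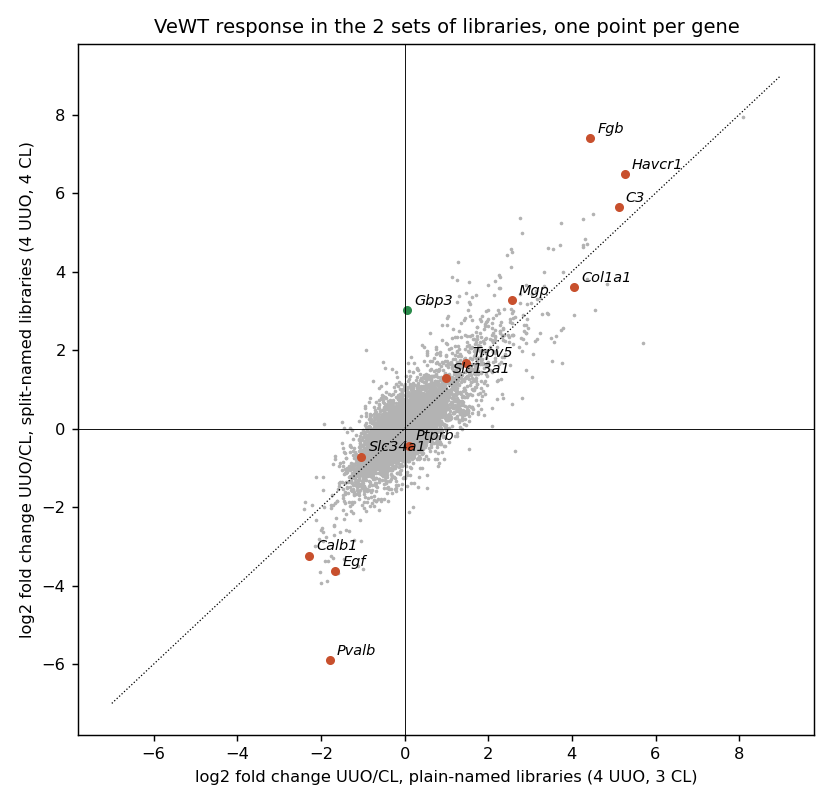
Log2 fold change (UUO over CL) of each gene in plain-named libraries (x axis) against split-named libraries (y axis), with the line of equality dotted and some genes of the text marked. Havcr1, C3, Egf, and Calb1 lie on the same side of 0 in both, and Gbp3 lies near 0 on the x axis and at 3.02 on the y axis.

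A direct test of the difference between the forms called only Gbp3, an interferon-induced guanylate-binding protein (0.00917% of genes tested). Gbp3 was at 63.8, 99.7 and 11.2 CPM in plain-named CL, 61.7, 72.9, 78.4 and 66.4 in plain-named UUO, 11.1, 9.72, 21.2 and 9.99 in split-named CL, and 119, 123, 110.2 and 64.9 in split-named UUO libraries. Its response in split-named libraries exceeded that in plain-named by 2.94 on the log2 scale (SE 0.45, adjusted p 0.00628). The CL levels differed most, as the plain-named CL replicates 1 and 2 were high and replicate 3 was not, and without CL replicate 2 it did not pass (adjusted p 0.193). No gene was called in the other direction by edgeR's quasi-likelihood test, while 726 genes had an unadjusted p under 0.05 in either direction and DESeq2 called 2 above and 3 below 0. Among the 20 largest rises and falls, some had fitted values far apart in plain-named and split-named libraries and did not pass this test: Egf with -1.66 and -3.64 (adjusted p of the difference 0.246), Pvalb with -1.79 and -5.91 (0.151), Slc4a1 with -1.11 and -3.51 (0.246), Tmem207 with -1.60 and -3.67 (0.254), and Fgb with 4.44 and 7.39 (0.559). Slc4a1 did not pass in plain-named libraries alone (adjusted p 0.0544). A difference that misses the threshold does not show that the forms respond alike.

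Set against the knockout of the same line, the VeWT response differed past the threshold in 1 gene. Over 11916 genes tested in VeWT and VeKO libraries together, no gene had a more positive response in VeWT and 1 a more negative (0.00839%), with 812 at an unadjusted p under 0.05 and 1 above and 1 below 0 by DESeq2. The gene was Smpdl3b, a membrane-bound sphingomyelinase-like enzyme, with a log2 fold change of 0.65 in VeWT and 5.50 in VeKO mice (difference -4.86, SE 0.77, adjusted p 0.00187). In split-named libraries Smpdl3b had 11.3 to 33.3 CPM of the library total, without TMM factors, in VeWT CL and 0 to 2.04 in VeKO CL kidneys, and 19.4 to 47.6 and 19.7 to 107 in UUO kidneys, so the CL ranges of this form did not overlap. In plain-named libraries it had 0 to 3.79 in VeWT CL and 0 to 3.60 in VeKO CL kidneys, and 5.82 to 14.9 and 4.52 to 15.2 in UUO kidneys, so both kidneys overlapped there, and these libraries alone gave no call below 0. Without the libraries whose number carries both genotypes it did not pass (difference -3.93, adjusted p 0.9997). The fit of VeWT with VeKO libraries holds a single form term shared by both genotypes. The median CL level of Smpdl3b was 1.32 CPM of the library total in plain-named and 27.0 in split-named VeWT libraries. In VeKO mice these medians were 1.80 and 0.404. A shared term cannot follow both, and its part in the difference was not tested. Clu rose by a log2 of 2.72 in VeWT and 1.35 in VeKO mice (difference 1.36, SE 0.29, adjusted p 0.0871), and Col1a1 by 3.69 and 2.64 (difference 1.05, SE 0.48, adjusted p 0.715).

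Side by side, the median response of the study's matrix panel was 1.85 in VeWT and 0.95 in VeKO mice, and that of fibroblast markers 2.08 and 1.09. The fitted response was larger in VeWT for all 14 matrix panel genes and all 20 fibroblast markers tested, of which none passed the test of the difference, beside 5705 of all 11916 genes tested. For the 10 endothelial genes the medians were -0.16 and -0.52, again with the VeWT value above the VeKO value for all 10 and no call. Members of a list are measured in the same libraries and are not replicates.

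Compared with IgG mice over 10803 genes, none had a more positive response in VeWT by edgeR's quasi-likelihood test, with 766 at an unadjusted p under 0.05, and 5 a more negative (0.0463%), against 3 and 5 by DESeq2. By DESeq2 the adjusted p was 0.036 for Gm10801 and for Serpina10, and the other 3 of these 5 genes did not pass (0.08 to 0.339). The repeat-like transcripts Gm10800, Gm10801, Gm10718, and Gm21738 are 4 of the 5, and without VeWT UUO replicate 2 only Gm10801 of these 4 passed (adjusted p 0.0641 for each of the others). In plain-named libraries alone or without the form, no gene of this comparison passed. Gm10801 had 117 to 173 CPM of the library total in plain-named VeWT CL and 14.9 to 34.3 in plain-named VeWT UUO libraries but at most 0.934 in split-named ones, where the split-named IgG libraries held 8.17 to 20.0 in CL and 25.7 to 58.4 in UUO kidneys. Serpina10, a plasma inhibitor of coagulation factor Xa, rose by 3.16 in VeWT and 4.94 in IgG mice (difference -1.78, SE 0.37, adjusted p 0.0455). Its levels differed in split-named CL kidneys, 16.5 to 36.9 CPM of the library total in VeWT and 0 to 8.17 in IgG mice, and in plain-named libraries alone the difference was -0.29. Its call was lost without any of IgG CL replicates 4 to 8, IgG UUO replicates 3, 4, 5, 6, or 8, VeWT CL replicates 5 or 7, or VeWT UUO replicates 2, 3, 6, 7, or 8 (adjusted p up to 0.153). It was also lost without the 4 libraries with a number of both genotypes (-1.64, adjusted p 0.22), with RLE factors (adjusted p 0.0516), after thinning (0.672), and without the form (0.9999).

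Compared with PbWT mice over 12232 genes, 7 had a more positive (0.0572%) and 1 a more negative response (0.00818%) in VeWT, with 1104 at an unadjusted p under 0.05. Slc34a1 fell less in VeWT (-0.89) than in PbWT mice (-2.21; difference 1.32, SE 0.22, adjusted p 0.00714). In plain-named libraries, the form all PbWT libraries have, it was at 543 to 1077 CPM of the library total in VeWT and 462 to 605 in PbWT UUO kidneys, and at 1447 to 1679 and 1691 to 1909 in CL kidneys. Miox, an inositol-degrading enzyme of the proximal tubule, fell by a log2 of 1.15 in VeWT and 2.77 in PbWT mice (difference 1.62, SE 0.28). The antisense-type transcripts Gssos2 (difference 1.71), Gssos1 (1.70), and 4930442L01Rik (1.57) overlap other genes, and Gssos1 and Gssos2 cannot be told apart from each other or from Gss in unstranded counts, and neither Gssos1 nor 4930442L01Rik passed without PbWT UUO replicate 2 (adjusted p 0.0526 and 0.0554). With plain-named libraries alone no gene passed, and the differences were 1.17 for Slc34a1 and 1.51 for Miox (adjusted p 0.272 for both). DESeq2 called 187 genes above and 0 below 0. The other calls were BC037032, Ces1d, and Kif20b, a mitotic kinesin with the only more negative response (difference -2.72, SE 0.56, adjusted p 0.0379), which fall outside the rule for named genes and were chosen after their values were seen. The split-named VeWT libraries have no PbWT counterpart.

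Across the 30 proximal tubule markers the median response was -0.93 in VeWT and -1.87 in PbWT mice, with the VeWT value above the PbWT value for all 30 and Slc34a1 and Miox past the test of the difference, beside 5964 of all 12232 genes above 0. In the fit with IgG mice the medians were -0.91 and -1.30, and in that with VeKO mice -0.92 and -0.80, with no call in either. These comparisons share the VeWT libraries.

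**Figure D5:**
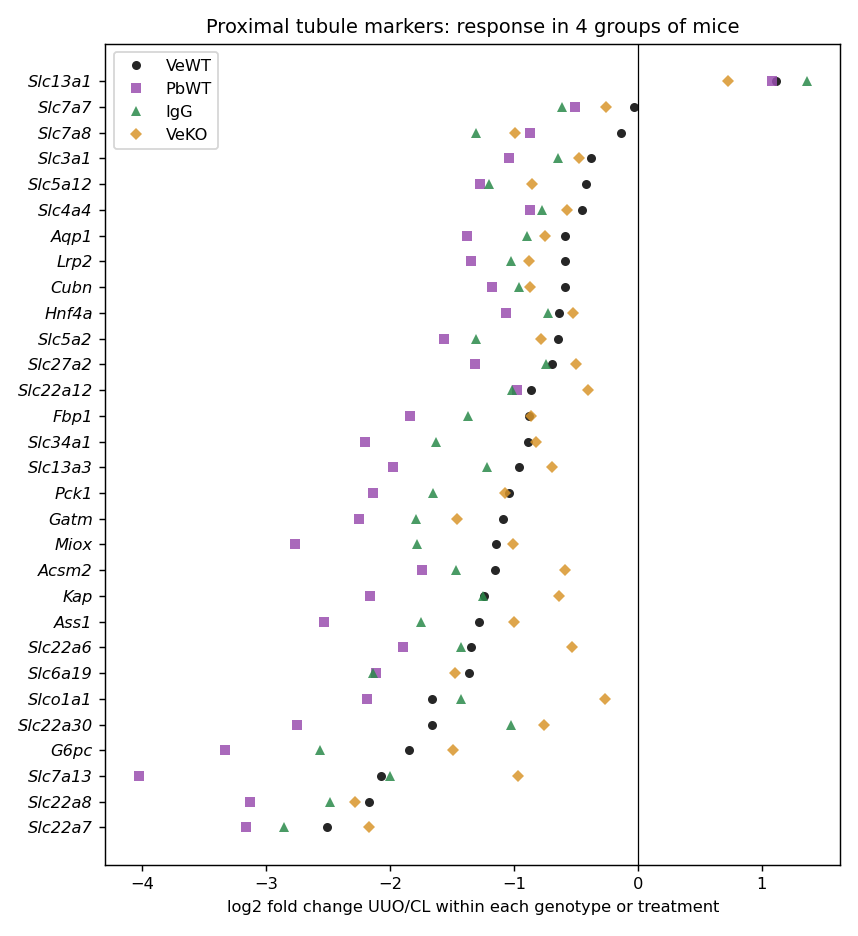
Log2 fold change (UUO over CL) of each of the 30 proximal tubule markers in VeWT (black circles), PbWT (purple squares), IgG (green triangles), and VeKO mice (orange diamonds), ordered by the VeWT value. The PbWT squares lie to the left of the VeWT circles for all 30 genes, and Slc13a1 lies above 0 in all 4 groups.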

How the data were processed

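RNA of 15 VeWT kidneys was read with Smart-seq3, and the reads were made into counts by the authors: per the submitters' processing notes with STAR 2.7.3a on mm10, UMI-tools 1.1.4, and featureCounts of Subread 1.4.6-p5, after merging the 4 wells of each sample. The deposited table holds raw counts of unique molecular identifiers per gene symbol, and the sources used here do not state its annotation or strand setting. The members, gene lists, and tests were chosen with earlier results of these data known.

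Genes that passed filterByExpr were fitted with edgeR 4.0.16 (R 4.3.3), using TMM factors, the quasi-likelihood test, and the form of the library name as covariate, with Benjamini-Hochberg adjustment at 0.05. SE is the log2 fold change divided by the root of F. The difference between forms and between genotypes was tested as an interaction. The fit with IgG mice held the form separately in each genotype. That with VeKO mice held a single form term shared by both genotypes. PbWT libraries have only the plain form. Counts, not recovered from normalized values, entered all tests, and the study itself used edgeR's exact test. Named genes were Ptprb, the 10 largest called rises and falls at a mean of at least 20 CPM without overlap within either form, members of the lists, and the top genes of each interaction. Some members of the lists are not reported here by name. Gene positions came from GENCODE M21 (mm10). No 2 libraries agreed within sampling noise. The fits were tested on simulated counts with known changes. Of changes of log2 1, 85.9% were recovered for the VeWT response and 14.6% for the difference between forms. For the differences from IgG, VeKO, and PbWT mice these shares were 55.6%, 42.9%, and 39.8%. Of changes of log2 2, 100% were recovered for the response and 65.3% between forms. Against IgG, VeKO, and PbWT mice they were 97.9%, 86.0%, and 88.8%.

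Alternatives were no TMM factors, RLE factors, DESeq2 1.42.0, the exact test, other filters on low counts, removal of the ribosomal repeat transcripts, thinning to the shallowest library, Xist as covariate, single forms, a replicate block (limma 3.58.1), and each library left out. Y-linked genes as covariate, the split-named libraries without UUO replicate 5, and the fit without CL replicate 1 and UUO replicates 1 and 4 were added after seeing the data. Intervals and floors cover counting error only, at totals of 263848 to 1894286 counts per library.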

Additional observations from a re-analysis of the deposited data

Results flagged for a closer look

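A single library stood apart from the rest of its group in 16 of 243 groups of CPM values examined (6.58%). The gap test used Dixon's 95% level over the 7 CL or 8 UUO libraries of both forms. Its rate of about 1 in 20 holds for groups without such forms. These groups pool forms that differed in 57.2% of genes, so the share is not set against that rate. In CL replicate 3, the shallowest of the 15, the values that stood apart were 16.9 CPM for Fgb (others at most 6.54), 61.8 CPM for Fga (others at most 36.4), 39.3 CPM for Fgg (others at most 19.6), and 28150.0 CPM for Kap (others at most 11577). The 3 fibrinogen genes thus share this library. CL replicate 2 was highest for Havcr1 at 33.8 CPM (others at most 17.7), Egf at 1892 CPM (others at most 1306), Clu at 447 CPM (others at most 309), and Cxcl10 at 14.2 CPM (others at most 4.91). CL replicate 1 was highest for Timp1 at 6.54 CPM and Ccn2 at 72.0 CPM, and lowest for Cat at 548 CPM (others at least 703).

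Among UUO libraries, replicate 5 stood apart at 266 CPM for Aqp2 (others at most 128), 135.9 CPM for Cfd (others at most 58.5), and 38.5 CPM for Upk1a (others at most 11.6). It is the split-named UUO library with Xist and no Y-linked RNA, and its part in the results was not tested beyond the fits without it. UUO replicate 4 was highest for Mki67 at 122.9 CPM, and UUO replicate 2 for Tmem207 at 27.4 CPM (others at most 11.4).

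The response differed between groups by an interaction test in edgeR's quasi-likelihood fit as follows. Between the forms Gbp3 differed by 2.94 on the log2 scale. Between VeWT and IgG mice the log2 differences were -3.61 for Gm10801, -3.53 for Gm21738, -3.37 for Gm10718, -2.79 for Gm10800, and -1.78 for Serpina10. Between VeWT and VeKO mice it was -4.86 for Smpdl3b. Between VeWT and PbWT mice they were 1.71 for Gssos2, 1.70 for Gssos1, 1.62 for Miox, 1.57 for 4930442L01Rik, 1.57 for Ces1d, 1.48 for BC037032, 1.32 for Slc34a1, and -2.72 for Kif20b.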

How the results depend on the processing

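Of the 99 called genes of the VeWT response that are named, 94 were called with each library left out in turn, 63 under every other alternative, and none changed direction. Leaving out each library gave 1594 to 1873 genes higher and 1781 to 2074 lower in UUO. A count moved by over 1.5 times without the form of the library name (1004 higher, 872 lower), with edgeR's exact test, which cannot hold the form (1085 and 919, or 513 lower without TMM factors), in plain-named libraries alone (698 and 730), after thinning to the shallowest library (785 and 944), and without the 4 libraries with a number of both genotypes (1142 higher). Without TMM factors it was 2649 higher and 1314 lower, and with no filter on low counts 2592 and 2396. The replicate block could use only the numbers 5 and 6, which VeWT kidneys share: limma voom gave 1953 higher and 2192 lower with the block and 1858 and 2076 without, with a consensus correlation of 0.23 within the blocks. The deviations of these 2 pairs correlated at 0.07 and 0.13. As no label says what a number stands for and only 2 pairs exist, the numbers were not taken to pair the libraries. The causes were not tested.

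For the difference between forms, calls above and below 0 numbered 2 and 3 with DESeq2, 2 and 2 with Xist as covariate, and 31 and 36 with no filter on low counts, where few counts enter, while thinning left 0 above 0 and leaving out the 4 libraries gave 2 below 0. Leaving out each library gave 0 to 2 and 0 to 3. For the difference from IgG mice they numbered 3 above 0 with DESeq2 and 57 and 52 with no filter. Calls below 0 were 2 in split-named libraries alone, 0 in plain-named alone, 2 at a mean count of at least 20, 0 without the form, and 2 after thinning, and 0 to 2 and 1 to 12 with each library left out. For VeKO mice they were 1 above 0 with DESeq2, 2 and 0 in plain-named libraries alone, and 76 and 73 with no filter. Smpdl3b was lost, leaving 0 below 0, without the form, after thinning, and without the libraries with a number of both genotypes. Each library left out gave 0 to 6 above and 1 below 0. For PbWT mice they were 187 and 0 with DESeq2, 13 and 2 with RLE factors, 30 and 8 with Xist as covariate, 0 and 0 in plain-named libraries, 16 and 2 at a mean count of at least 20, 179 and 23 with no filter, 2 and 0 after thinning, and 5 below 0 without TMM factors, with 3 to 43 and 0 to 6 when each library was left out. The counts of these differences are small. Plain-named libraries of VeWT mice held totals of 263848 to 858624 counts.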
